A study of Mus musculus with 2 samples.

Results

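The 10 genes described here carry out and control the synthesis, elongation and desaturation of fatty acids: Srebf1, Acly, Acaca, Fasn, Scd1, Scd2, Elovl5, Elovl6, Fads1 and Fads2. They were chosen by name, with earlier results of these data known. Every probe set whose platform annotation gives 1 of these genes and no other was taken. This gave 25 of the 45037 probe sets and 10 of the 18193 named genes. Gene expression was profiled in primary mouse embryonic fibroblasts (MEFs) from 13.5-day C57/BL6 embryos, young cells at passage 2. They had been transfected with GapmeR Control, a scrambled oligonucleotide with no target, or with GapmeR AK156230, an LNA oligonucleotide that directs RNase H to the lncRNA AK156230. Each condition was read on 1 array, and the comparison asks how expression differs when AK156230 is silenced in young cells.

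With 1 array per condition no difference has a replicate check, and neither a test nor a p-value is given. The values are MAS5 signals on a linear scale, and ratios set GapmeR AK156230 against GapmeR Control as deposited. In each pair of signals GapmeR Control comes first and GapmeR AK156230 follows. The median signal over all probe sets was 54.80 (GapmeR Control) and 50.95 (GapmeR AK156230), and scaling both arrays to the same median would raise every log2 ratio by 0.11. In 5112 genes that had 2 or more probe sets at or above the median signal, the brightest pair differed in log2 ratio with an SD of 0.39, which is the only measure of error that the arrays offer. It covers the disagreement between probe sets and not that between cultures. Of the named genes 3.85% were lower and 1.59% were higher by 2-fold or more (700 and 289 genes, or 583 and 388 with both arrays scaled to the same median), and 58.8% had a log2 ratio under 0. The annotation assigns AK156230 to none of the probe sets, so its knockdown cannot be read from these arrays, and the time between transfection and RNA extraction for them is not given in the sources used here.

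Cells make fatty acids from citrate. Acly splits cytosolic citrate to acetyl-CoA, Acaca carboxylates acetyl-CoA to malonyl-CoA, and Fasn builds palmitate from both. Palmitate is lengthened by Elovl6 and receives a double bond from the stearoyl-CoA desaturases Scd1 and Scd2, while Fads1, Fads2 and Elovl5 turn essential fatty acids of the diet into long polyunsaturated ones. Srebf1 encodes a transcription factor of the SREBP family, which is held in the endoplasmic reticulum membrane by Insig proteins, escorted to the Golgi by Scap, released there by proteases and then switches on most genes of this pathway.

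After transfection with GapmeR AK156230 the signal was lower for all 10 genes at their brightest probe set, against 58.8% of all named genes. The ratios ran from 1.27-fold lower for Fasn and Srebf1 to 2.90-fold lower for Acaca. The median log2 ratio was -0.64, or 1.56-fold lower, against -0.07 for all named genes. Acaca, Elovl6 and Scd1 were lower by 2-fold or more, against 3.85% of all named genes. None of the 10 was higher by 2-fold, against 1.59%, and 7 lay within 2-fold. At a threshold of 1.5-fold, 6 of the 10 genes were lower, against 9.69% of all named genes. Of the 25 probe sets 24 had a log2 ratio under 0, against 57.8% of all probe sets, and 4 were lower by 2-fold or more, against 3.28%. None was higher by 2-fold, against 1.45%, and 14 were lower by 1.5-fold or more, against 9.38%. The probe set with a ratio above 0 was one of Acly, with signals of 3.22 and 5.88, near the bottom of the range on both arrays. All 21 probe sets at or above the median signal had log2 ratios under 0, from -1.54 to -0.17, against 55.3% of all probe sets that bright. In a bulk sample of cells, fewer cells that express a gene and less of its RNA per cell cannot be told apart.

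**Figure D1:**
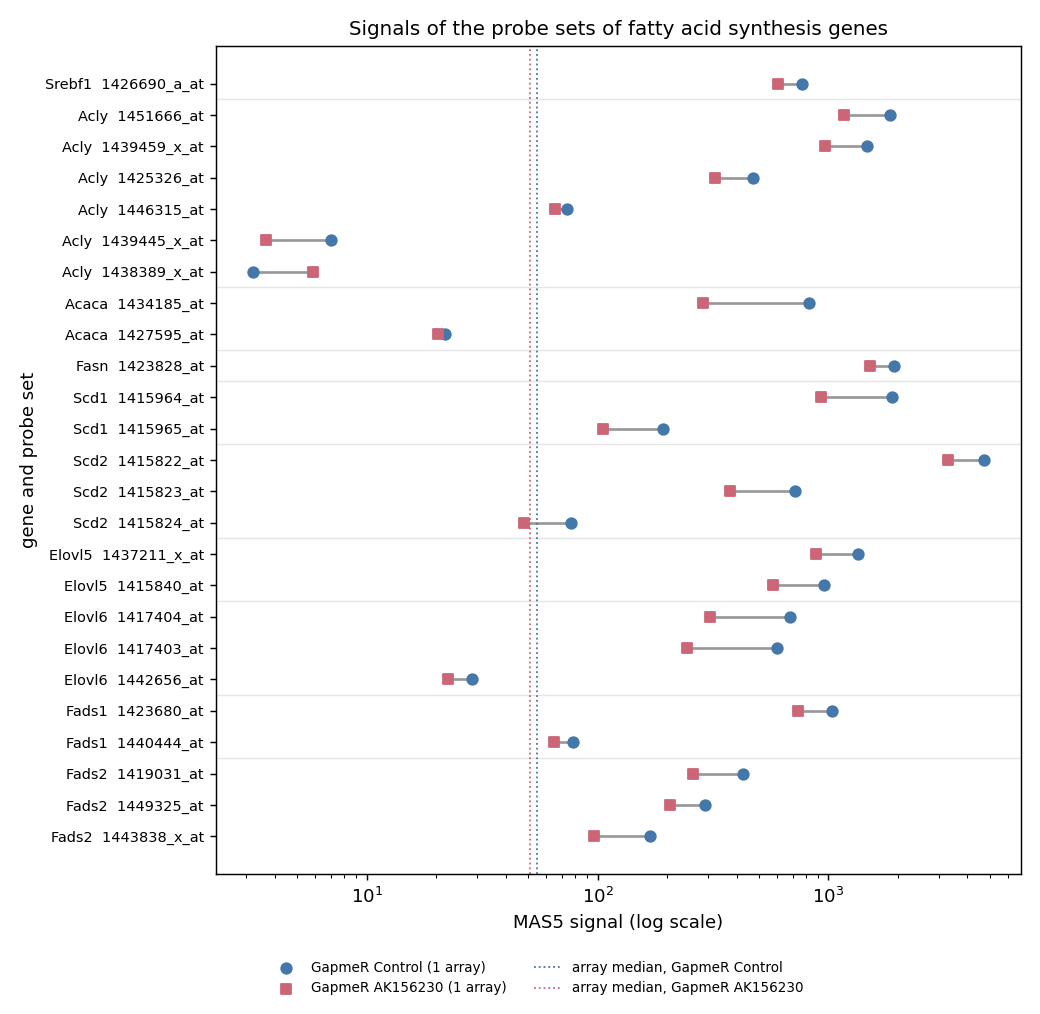
MAS5 signal (log axis) of each of the 25 probe sets, 1 row per probe set grouped by gene, with a circle for GapmeR Control, a square for GapmeR AK156230 and dotted lines at the median signal of each array. The square lies left of the circle in 24 rows, and the widest step is that of the bright Acaca probe set, from 826.98 to 285.15.

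The 5' flanks of some of these genes are shown because SREBP proteins bind sterol regulatory elements close to their target genes, often beside sites for NF-Y, which binds CCAAT, and for Sp1, which binds GC boxes. RefSeq promoters of GRCm38.p6, from 250 bases before to 50 bases after the start of transcription, were at hand for 7 of the genes (9 promoters) and not for Scd1, Scd2 and Fads1. Below are the 200 bases before the start of Acly, Elovl5, Elovl6 and Fads2, whose start in that table is the first base of the gene. They are written along the coding strand, with capitals for each match to a searched motif on either strand.
Acly, chr11:100528001-100528200, minus strand: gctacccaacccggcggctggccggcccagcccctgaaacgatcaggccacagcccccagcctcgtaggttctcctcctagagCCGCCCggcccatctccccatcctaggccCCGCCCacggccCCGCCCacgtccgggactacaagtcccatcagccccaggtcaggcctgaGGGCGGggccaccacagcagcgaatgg
Elovl5, chr9:77917165-77917364, plus strand: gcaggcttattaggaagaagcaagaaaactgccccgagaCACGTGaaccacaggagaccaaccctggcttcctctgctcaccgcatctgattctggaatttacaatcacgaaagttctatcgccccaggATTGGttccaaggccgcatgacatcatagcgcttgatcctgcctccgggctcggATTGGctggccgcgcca
Elovl6, chr3:129532186-129532385, plus strand: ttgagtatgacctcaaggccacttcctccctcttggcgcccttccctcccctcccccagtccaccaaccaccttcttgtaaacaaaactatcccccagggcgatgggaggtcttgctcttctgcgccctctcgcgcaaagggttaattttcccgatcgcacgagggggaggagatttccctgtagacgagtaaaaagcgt
Fads2, chr19:10101504-10101703, minus strand: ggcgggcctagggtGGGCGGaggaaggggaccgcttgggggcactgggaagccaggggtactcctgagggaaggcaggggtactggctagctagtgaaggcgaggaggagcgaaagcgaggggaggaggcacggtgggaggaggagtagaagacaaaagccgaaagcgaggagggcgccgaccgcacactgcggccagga

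Both strands were searched for the sterol regulatory element in the letters TCACCCCAC and in the looser TCACNCCAC, which contains the first, for the E-box CACGTG, for CCAAT and for the GC box GGGCGG. Neither form of the sterol regulatory element was found in these letters in any of the 9 promoters, and the looser form was in 1.24% of all 32851 promoters. CCAAT was found in 5 of the 9 promoters, those of Fasn, Elovl5 and Acly and 2 of Srebf1, and in 37.4% of all promoters. Fasn had 3 matches between 90 and 55 bases before its start, and Elovl5 had one match at -71 and another at -17, shown above as ATTGG. The GC box was in 4 of the 9 promoters, with 4 matches in Acly, and in 35.7% of all promoters. The E-box was in Elovl5 alone of these genes and in 7.15% of all promoters. Acaca and Elovl6, which were lower by 2-fold or more, held none of the motifs in this window. The matches describe these letters only, and a site outside the window or with other letters would not be seen.

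Coordinates of the genes are those of RefSeq on GRCm38.p6. Srebf1 (chr11:60199084-60224186), the transcription factor of the group, had signals of 771.15 and 607.53. It was 1.27-fold lower, and its log2 ratio of -0.34 was among the smallest of the 10 in size. It has a single probe set, which does not separate the transcripts that begin at its different promoters.

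The enzymes that supply the building blocks differed from each other in the size of their ratios. Acly (chr11:100476352-100528000) had signals of 1857.01 and 1164.48, 1.59-fold lower. The next Acly probe sets in brightness gave 1475.98 and 965.83, and 472.17 and 321.80, with log2 ratios of -0.67, -0.61 and -0.55 for these 3. The dimmest of its probe sets above the median signal gave 73.47 and 65.50, a log2 ratio of -0.17, and averaged over all probe sets Acly had -0.34. Acaca (chr11:84129635-84401651), the committed step of the pathway, had the lowest ratio of the 10 genes, with signals of 826.98 and 285.15, 2.90-fold lower. Its other probe set was dim on both arrays, at 21.89 and 20.40, far under the array medians, and had a log2 ratio of -0.10. The call of Acaca thus rests on 1 probe set. Fasn (chr11:120805958-120825166), which uses the products of both, had signals of 1914.92 and 1511.84 and was 1.27-fold lower, like Srebf1.

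The stearoyl-CoA desaturases both had lower signals. Scd1 (chr19:44394450-44407709) had signals of 1891.52 and 932.29, 2.03-fold lower, and 192.61 and 105.77 at its second probe set, 1.82-fold lower. Scd2 (chr19:44293676-44306864) had 4716.98 and 3295.25, 1.43-fold lower. Its other probe sets, at 720.12 and 375.08 and at 77.00 and 48.24, were 1.92-fold and 1.60-fold lower. The log2 ratios thus ran from -1.02 to -0.86 for Scd1 and from -0.94 to -0.52 for Scd2 and overlapped. At the brightest probe sets the paralogs differed by 0.50, or 1.29 times the SD between probe sets of a gene. Scd1 was just past 2-fold, and its log2 ratio was -0.92 with both arrays scaled to the same median. Whether the probe sets of these close paralogs also bind each other's transcripts was not tested.

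Both elongases had lower signals. Elovl6 (chr3:129532386-129638495), which lengthens palmitate, had signals of 678.71 and 306.88, 2.21-fold lower, and 599.86 and 244.30 at a second probe set, 2.46-fold lower. Its dim probe set had 28.57 and 22.56. Elovl5 (chr9:77917365-77984519), which lengthens polyunsaturated fatty acids, had 1341.13 and 879.63, 1.52-fold lower, and 961.41 and 578.02, 1.66-fold lower. At or above the median signal, the probe sets of Elovl6 (log2 ratios of -1.30 and -1.15) and of Elovl5 (-0.73 and -0.61) did not overlap, and the brightest differed by 0.54, or 1.38 times the SD between probe sets. The dim Elovl6 probe set, at -0.34, lay above both of Elovl5, and averaged over all probe sets Elovl6 had -0.93 and Elovl5 -0.67, closer together than that SD.

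The desaturases of polyunsaturated fatty acids lie side by side on chromosome 19. Fads1 (chr19:10182877-10196874) had signals of 1040.20 and 735.63, 1.41-fold lower, and 78.30 and 64.97 at a dimmer probe set. Fads2 (chr19:10062765-10101503) had 424.61 and 260.00, 1.63-fold lower. At its other probe sets it had 293.45 and 206.52, and 169.14 and 96.46. The brightest probe sets of this pair differed by 0.21, within the SD between probe sets of a gene.

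**Figure D2:**
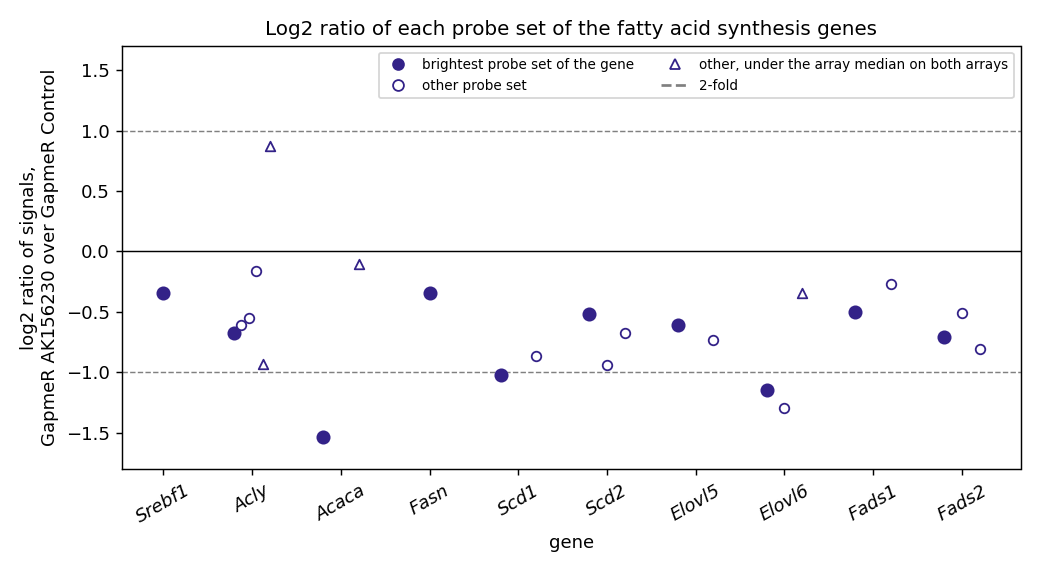
Log2 ratio (GapmeR AK156230 against GapmeR Control) of the 25 probe sets, by gene, with a filled point for the brightest one, probe sets under the array median on both arrays as triangles and dashed lines at 2-fold. Filled points run from -1.54 for Acaca to -0.34 for Fasn and Srebf1, and the point above 0 is a dim Acly probe set at 0.87.

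In order of their log2 ratios the genes were Acaca (-1.54), Elovl6 (-1.15), Scd1 (-1.02), Fads2 (-0.71), Acly (-0.67), Elovl5 (-0.61), Scd2 (-0.52), Fads1 (-0.50), Srebf1 (-0.34) and Fasn (-0.34). The widest gap between neighbours in this order, between Acaca and Elovl6, was 0.39 and of the same size as the SD between probe sets of a gene, and the other gaps were smaller, so the order of neighbours is not resolved. Acaca and Fasn, which act in succession and are the lowest and the highest of the 10, differed by 1.20, or 3.07 times that SD. The SD is for 2 probe sets of a gene and not for the extremes of a set. Averaged over all probe sets Acaca had -0.82, against -0.34 for Fasn, which has a single probe set. Among the 12319 genes at or above the median signal, 2.18% had a log2 ratio at or below that of Acaca, 3.95% at or below that of Elovl6, 4.77% at or below that of Scd1 and 22.2% at or below that of Fasn. The count of 3 genes lower by 2-fold depends on how probe sets are joined: when all probe sets of a gene were averaged, Scd1 had a log2 ratio of -0.94, Elovl6 -0.93 and Acaca -0.82, and none was past 2-fold. With the mean of probe sets at or above the median signal, an alternative chosen after seeing the data, Acaca (-1.54) and Elovl6 (-1.22) were.

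The share of lower genes was larger among long genes on these arrays, so the genomic spans are given beside the ratios. Acaca spans 272.0 kb and Elovl6 106.1 kb, and the other 8 genes are under 80 kb. Of all genes at or above the median signal, 4.92% had signals lower by 2-fold or more. In the class of Acaca, from 160 to 320 kb, the share was 21.9% of 524, and in that of Elovl6, from 80 to 160 kb, it was 8.30% of 1277. In the class of 10 to 20 kb, which holds Fasn, Scd1, Scd2 and Fads1, the share was 2.19% of 2424 genes. Each of the 10 genes was below the median log2 ratio of its class, with differences of -0.33 to -1.13, the latter for Acaca. For Acaca 11.8% of the genes of its class had a ratio as low or lower, for Elovl6 6.73% and for Scd1 2.10%. The part of gene span in the ratios was not tested.

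**Figure D3:**
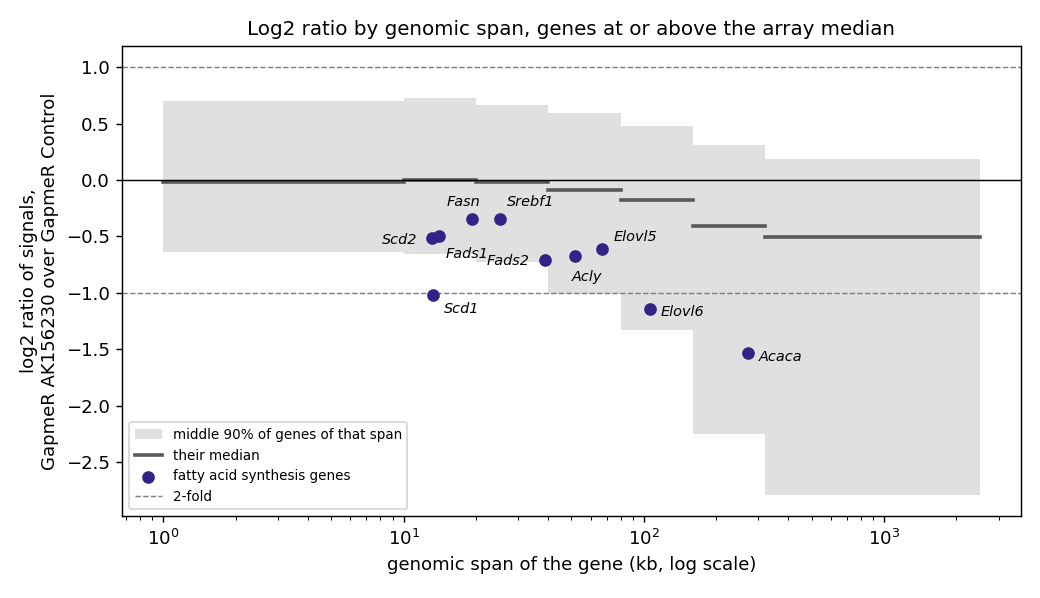
Log2 ratio (GapmeR AK156230 against GapmeR Control) by genomic span (log axis) for the 10 genes, over grey bands that hold the middle 90% of all genes at or above the array median in each class of span (the first and last class are open, and their outer edges are arbitrary) and bars at the class median. Scd1 lies under the band of its class, and Acaca and Elovl6 lie within theirs.

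Genes next to these 10 in the genome lay on both sides of 0. Srebf1, Acly, Acaca and Fasn lie on chromosome 11 and the Scd and Fads genes on chromosome 19. Of 31 other genes at or above the median signal within 100 kb of any of the 10, 15 had log2 ratios under 0, against 56.8% of all genes that bright, and the median was 0.03. Of these 31, 4 were lower by 2-fold or more, against the 4.92% given above for genes that bright, and none was higher. Named after their values were seen, they were Tom1l2 near Srebf1 (581.58 and 231.62), Nt5c3b near Acly (213.33 and 91.16), Aatf near Acaca (286.05 and 110.78) and Cbr2 near Fasn (184.20 and 52.74).

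Of 25 further measured genes of fatty acid synthesis, elongation and desaturation, 3 were lower by 2-fold or more, against 3.85% of all named genes. None was higher, and 17 of the 25 had log2 ratios under 0, against 58.8% of all named genes. The median of the 25 was -0.33, against -0.07 for all named genes. Acss2, which makes acetyl-CoA from acetate, had signals of 150.37 and 60.80, 2.47-fold lower, though its log2 ratio was -0.82 as the mean of its probe sets. Hacd1 and Hacd4, dehydratases of the elongation cycle, were 3.17-fold and 2.84-fold lower, while Hacd2 and Hacd3, of the same family, had log2 ratios of 0.36 and 0.06. The following genes were named for their roles and not by the rule. The citrate carrier Slc25a1 (936.52 and 716.09) and Me1, which makes NADPH (1174.78 and 882.02), had log2 ratios of -0.39 and -0.41, close to that of Fasn. Cyb5a and Cyb5r3, which pass electrons to the desaturases, had -0.77 and -0.48. Tecr, the last enzyme of the elongation cycle, and the elongase Elovl1 had 0.12 and 0.11, so the genes of the elongation cycle lay on both sides of 0.

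Of 21 measured genes of SREBP and LXR control, Insig1 alone was lower by 2-fold or more, near the 3.85% of all named genes. None was higher, against 1.59%, and the median log2 ratio was -0.12, against -0.07 for all named genes. Insig1, itself a known target of SREBP proteins, had signals of 1266.61 and 551.24, 2.30-fold lower. The other parts of the machinery, named for their role, were within 2-fold: Scap had a log2 ratio of -0.92 (864.07 and 455.14), Insig2 -0.55, the protease genes Mbtps2 and Mbtps1 -0.45 and -0.34, and Srebf2, the relative of Srebf1 that favours cholesterol genes, -0.36. In the whole list 13 of 21 genes had log2 ratios under 0, near the 58.8% of all named genes, and 8 had ratios above 0. Among the latter were Nfya (0.56) and Nfyb (0.16), which encode subunits of NF-Y, and Sp1 (0.14), while the remaining NF-Y subunit gene Nfyc had -0.11. Nr1h3, which encodes an LXR receptor that raises Srebf1 transcription, had 82.95 and 76.50, a log2 ratio of -0.12.

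Genes of cholesterol synthesis and uptake, the other main branch under SREBP control, had lower ratios than the fatty acid genes. Of 18 measured genes 10 were lower by 2-fold or more, against 3.85% of all named genes. All 18 had log2 ratios under 0, against 58.8% of all named genes. The median of the 18 was -1.14, against -0.64 for the 10 fatty acid genes. The lowest were Nsdhl, an enzyme of sterol demethylation (4.61-fold lower), Lss, which closes the sterol rings (3.28-fold), Fdft1, which makes squalene (3.06-fold), and Dhcr7, which acts at the end of the pathway (2.92-fold). As the mean of its probe sets Fdft1 had a log2 ratio of -0.94. The difference between the branches has no test with 1 array per condition. Genes that activate fatty acids and build glycerolipids (24 measured) and genes of fatty acid oxidation (20 measured) showed no gene past 2-fold in either direction. Of all named genes 3.85% were lower and 1.59% higher by as much. A count of 0 in lists of this size is near those shares. The medians of these lists, -0.06 and -0.07, were near that of all genes. They turned to 0.04 and 0.03 with both arrays scaled to the same median. In these lists Gpam, which starts glycerolipid synthesis, had a log2 ratio of -0.66, Lpin1, a phosphatidate phosphatase gene, 0.65, and Cpt1a, the gate of mitochondrial oxidation, -0.07. These genes were chosen after their values were seen.

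**Figure D4:**
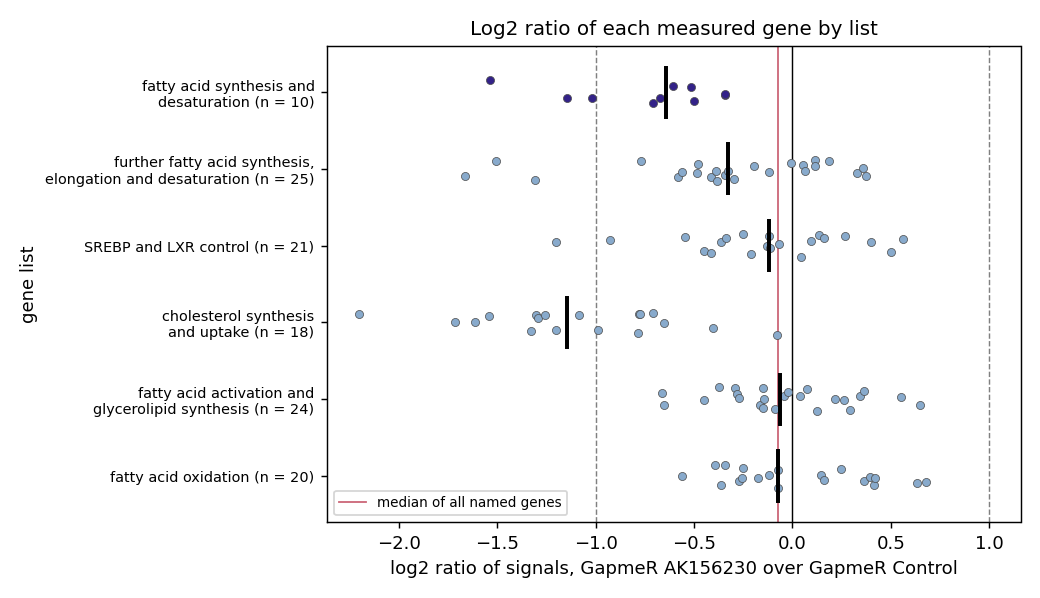
Log2 ratio (GapmeR AK156230 against GapmeR Control) of the measured genes of 6 lists, at their brightest probe sets. Black bars mark the median of a list, with a red line at the median of all named genes and dashed lines at 2-fold. The bars lie at -0.64 for the 10 fatty acid genes, -1.14 for cholesterol genes and near 0 for glycerolipid synthesis and oxidation.

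Markers of cell types also differed between the arrays. Of 15 fibroblast markers 7 had signals lower by 2-fold or more, against 3.85% of all named genes. None was higher by as much, against 1.59%. Of the 15, 13 had log2 ratios under 0, against 58.8% of all named genes. Among these 13 were Vim (-0.09) and S100a4 (-0.02). Dcn (0.06) and Twist1 (0.29) were above 0. The 7 include Prrx1 (5.90-fold), Fap (5.17-fold), Pdgfra (3.67-fold) and Col3a1 (2.95-fold), and the summed signal of the 15 was 42059 and 28630. Averaged over all probe sets, Prrx1 had a log2 ratio of -1.82, Fap -2.37, Pdgfra -1.34 and Col3a1 -2.34. Of 11 adipocyte markers, with a summed signal of 1982 and 1100, Fabp4 (4.51-fold) and Lpl (3.39-fold) were lower by 2-fold or more. Averaged over all probe sets, Fabp4 had a log2 ratio of -1.36 and Lpl -1.64. Log2 ratios under 0 were found for 7 of the 11, near the 58.8% of all named genes. Adipoq (12.24 and 15.36) and Cidec (22.02 and 17.41), which encode proteins typical of mature adipocytes, were far under the array medians. Pparg and Cebpa, the regulators of adipocyte formation, were above the array medians and had log2 ratios of -0.02 and -0.14, while Cd36 had -0.92 and Pnpla2 and Lep had 0.04 each. None of the 7 hepatocyte markers was past 2-fold (summed signal 503.4 and 414.5), which in a list of this size is near the shares of all named genes. Only 3 of the 7 were at or above the median signal. Markers of other cells that were higher by 2-fold or more were Cd68 and Cd14 of 10 for leukocytes (2706 and 2420), Dsp, Perp and Krt18 of 10 for epithelium (812.2 and 2017), Kdr of 8 for endothelium (239.8 and 291.6) and Chrna1 of 10 for skeletal muscle (1069 and 1708). The rest of these lists did not all go the same way: the other 8 leukocyte markers had log2 ratios under 0, from -0.92 to -0.03, as did 4 of the muscle markers, among them Myod1 (-0.76) and Des (-0.29). In the epithelial list 3 of 10 were under 0, and in the endothelial list 3 of 8, against 58.8% of all named genes. Dsp, Kdr and Chrna1 had GapmeR Control signals of 39.30, 44.54 and 39.66, under the median of that array (54.80). With an offset of 24.33 added to the signals of both arrays their log2 ratios were 2.43, 0.74 and 2.79, and Kdr was then within 2-fold. No marker was at the lowest value of the table, and the part of these differences in the ratios of the fatty acid genes was not tested.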

How the data were processed

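Gene expression was measured in young MEFs on 2 arrays, one for GapmeR Control and one for GapmeR AK156230. The deposited values are intensities, MAS5 signals on a linear scale that the authors scaled per array. The MAS5 version and the target of that scaling: not given in the sources used here. Detection calls were not in the table, so signals near background are not marked. A porcine array is named in the methods, but the labels give mouse RNA and the probe sets match the mouse annotation, which was used. Of 45037 probe sets 34945 had 1 gene symbol, 932 several and 9160 none. Symbols were updated through Entrez IDs to RefSeq genes of GRCm38.p6, which also gave spans for 99.7% of named genes.

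Log2 ratios were taken without offset, and a gene is represented by its brightest probe set, by mean log2 signal over both arrays. The methods' test for groups of arrays (SAM) cannot be applied to 1 array per condition. The 10 genes, the lists and the motifs were chosen with earlier results of these data known. Named beside the 10 genes are up to 4 genes of each list past 2-fold and at or above the median signal of the brighter array, with exceptions stated. Alternatives were median scaling, quantile normalization, loess (span 0.3), an offset of 24.33 (the 25th percentile), brightness filters, thresholds of 1.5-fold and 3-fold, means of probe sets, and leaving out _x_at and _s_at probe sets. The number of arrays limits the precision. Calculations were tested on simulated data and run in Python 3.11.15 (statsmodels 0.14.6, pandas 2.3.3, numpy 2.4.6, and matplotlib 3.10.9 for the figures).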

Additional observations from a re-analysis of the deposited data

How the results depend on the processing

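Under each scaling, offset and probe set alternative run, all 10 fatty acid genes had log2 ratios under 0, from -0.24 for Fasn with both arrays scaled to the same median to -1.54 for Acaca in the signals as deposited. The count of these genes lower by 2-fold or more was 3 as deposited, 2 with median scaling, quantile normalization or loess, where Scd1 dropped out, and 0 with the mean of all probe sets. At 1.5-fold the count was 6 genes and 14 probe sets, and at 3-fold it was 0 genes and 0 probe sets. Among the other lists, at 1.5-fold 16 cholesterol genes, 2 genes of SREBP and LXR control and 2 of glycerolipid synthesis were lower, and 1 gene of glycerolipid synthesis and 2 of fatty acid oxidation were higher. At 3-fold 3 cholesterol genes, 1 further fatty acid gene and 0 genes of SREBP and LXR control were lower. Of all named genes, 1762 were lower and 998 higher at 1.5-fold and 264 and 80 at 3-fold, and 158 were higher with the offset. No called value changed sign. Movement was judged against the SD of a probe set (0.28), since each condition has 1 array here, and no replicate could be left out. No paired analysis was possible with 1 array per condition.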
